A study of Oryctolagus cuniculus with 3 samples.

Results

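The genes described here are 10 antioxidant defence genes of the rabbit (Oryctolagus cuniculus): the superoxide dismutases SOD1 and SOD2, catalase (CAT), the glutathione genes GCLC, GCLM, GSS and GSR, heme oxygenase 1 (HMOX1), and the regulator pair NFE2L2 and KEAP1. They were chosen by symbol, and a row was used where the gene name was exactly that symbol. Of the 10 genes, 9 had a messenger RNA row of their own among the 39681 loci of the gene table. GCLM had none, since its locus carries the joint name GCLM;DNTTIP2. GSR named a second row, a short locus on the opposite strand. All 9 rows passed the minimum of 10 counts in the higher library, as did 15009 coding genes in all.

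The RNA came from ovarian cumulus-oocyte complexes, an oocyte with the cumulus cells around it. The labels describe 150 female IRA rabbits, 35 days old when the study began, which lived for 4 weeks in climate-controlled rooms that differed in ammonia (NH3). The library labelled CG is the control at under 3 ppm, LAC is the low concentration at 10 ppm, and HAC is the high concentration at 30 ppm. All groups share the breed, sex, age and length of stay, and no genotype, transgene or other agent is named. There was 1 library per group, and the sources used here do not say how many animals went into each. The values therefore have no replicate check, no test was possible between groups, and each interval below covers counting error only.

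Gene values of the library labelled HAC were not analysed here, because the gene section deposited for HAC repeats that of LAC in all 39681 rows and is headed LAC. The label itself is uncertain, since the highest gene FPKM of that table is the value that the statistics in the HAC file give, and the read totals are exchanged between these files. Every direction below compares the library labelled LAC with the library labelled CG. The counts summed to 78461882 in CG and 68523767 in LAC. The share of spliced reads is given as 22.01% for CG and 16.23% for LAC.

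The labelled cell type was checked against marker lists. All 16 oocyte markers and 11 of 14 granulosa and cumulus markers were found, and none of those found was at 0. The summed level of the cumulus and granulosa markers was 17045 CPM (a count relative to the scaled library size) in CG and 16745 CPM in LAC. This near-equal sum hides opposite differences, with 5 of the 11 markers higher in LAC and 6 lower. CYP19A1 had 163 CPM in CG and 265 in LAC, while IHH had 221 and 118. The oocyte markers summed to 4742 CPM in CG against 939 in LAC, and all 16 were lower in LAC by at least 1 on the log2 scale, with BMP15, an oocyte growth factor, at 1771 and 345 CPM. Stromal fibroblast markers summed to 36.6 and 140 CPM, with 5 of 8 higher in LAC past the same size. Markers of red blood cells summed to 9.98 and 6.80 CPM, but only 2 of the 9 listed had enough counts. Of these, SLC4A1 had 3.68 CPM in CG and 0.28 in LAC, while HBB2 was near equal at 6.25 and 6.44. Markers of smooth muscle summed to 63.5 and 69.0 CPM, and those of theca to 102 and 100. The near-equal sums of the last lists hide opposite differences. In smooth muscle 3 of 4 markers were above 0, while MYH11, with most of the sum, had 47.2 and 36.3 CPM. In theca 2 of 3 were above 0, while STAR, with most of the sum, had 68.0 and 48.7 CPM. For the next 3 lists, too, 1 gene carried most of the sum in CG. Macrophage markers summed to 52.8 and 25.8 CPM, with MSR1 at 47.3 and 8.20, while 6 of 7 had a difference above 0, among them MRC1 at 0.73 and 8.04 CPM. Endothelial markers summed to 49.0 and 8.08 CPM, with TEK at 46.7 and 4.23, while 4 of 6 were above 0 and CDH5, a junction protein of endothelium, had 0 counts in CG and 48 in LAC. Lymphocyte markers summed to 15.0 and 4.71 CPM, with MS4A1 at 14.0 and 2.83. Of the other lymphocyte markers, CD3E had 0 counts in both libraries, CD3D had 23 and 8, and PTPRC had 53 and 120. The oocyte and fibroblast markers moved between the same libraries as every result below, and their part in these results was not tested. In bulk RNA, fewer cells of a type and less RNA per cell cannot be told apart.

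Superoxide, a by-product of respiration and of oxidase enzymes, is turned into hydrogen peroxide by superoxide dismutases. Peroxide is then removed by catalase, by peroxiredoxins and by glutathione peroxidases, which draw on reduced glutathione. Glutathione is made from glutamate, cysteine and glycine by glutamate-cysteine ligase and glutathione synthetase, and the oxidised form is recycled by glutathione reductase. NRF2, the protein of NFE2L2, is a transcription factor that KEAP1 holds for degradation, and oxidants or electrophiles that modify KEAP1 let NRF2 reach its target genes, among them GCLC, GCLM and HMOX1. Cumulus cells are known to supply the oocyte with glutathione or its precursors through gap junctions.

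With libraries scaled by trimmed mean of M values (TMM) factors over all loci, the superoxide and peroxide enzymes, glutathione reductase and HMOX1 had lower levels in LAC, the enzymes that build glutathione and KEAP1 were close to equal, and NFE2L2 was higher. On the log2(CPM + 1) scale, 7 of the 9 genes had a difference below 0 and 2 above it. No gene passed the size rule of a difference of at least 1, which 11.0% of all coding genes passed as lower in LAC and 1.89% as higher. At the smaller size of 0.58, which is just under 1.5-fold, 3 genes were lower (SOD1, CAT and HMOX1) and none was higher. Of coding genes, 22.1% were lower and 6.01% higher. SOD1, at -0.5805, barely met this size. A count of 3 among 9 is near that background share and is not read as particular to these genes. It also rests on the scaling: with TMM factors from coding genes alone SOD1 (-0.41) and CAT (-0.45) missed 0.58, and NFE2L2 (0.72) passed it as higher. With 5 in place of 1 added to the CPM, SOD1 (-0.57) and HMOX1 (-0.42) missed it. The median difference was -0.23 over the 9 genes and -0.14 over all coding genes, of which 61.9% were below 0. Summed over the 9 genes, the level was 799 CPM in CG against 667 in LAC.

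**Figure D1:**
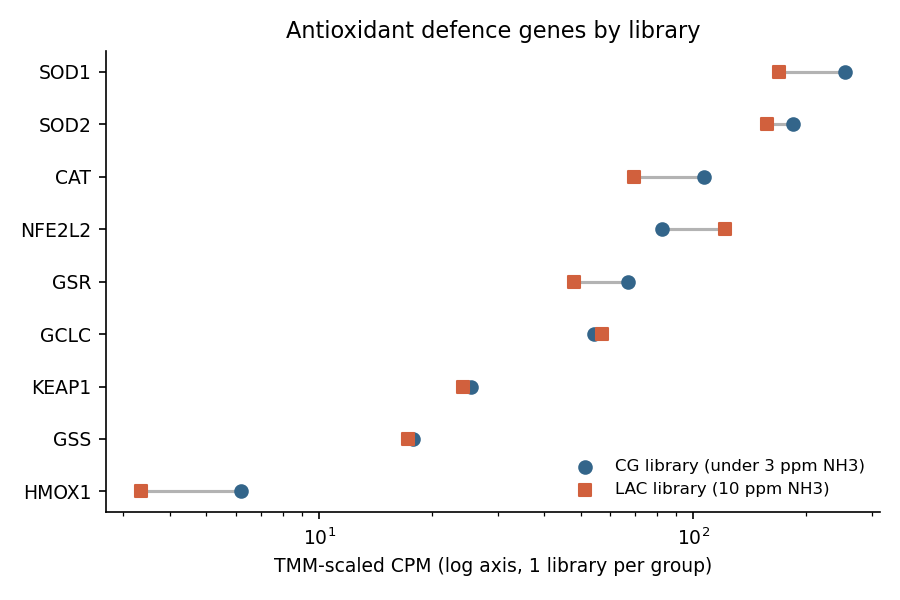
Level of each of the 9 genes in the 2 libraries, in TMM-scaled CPM on a log axis, with 1 point per library and a line joining the points of a gene. NFE2L2 is the gene with the widest gap toward LAC (82.6 and 121 CPM), and HMOX1 has the widest gap toward CG (6.18 and 3.34 CPM). Levels are to be compared within a gene, since CPM is not per length.

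SOD1, the copper and zinc superoxide dismutase of the cytosol, lies on OryCun2.0 sequence NC_013682.1 from 161796651 to 161803821 on the plus strand. It had 20104 counts (254 CPM) in CG and 11508 counts (169 CPM) in LAC. The ratio of CPM was 1.498-fold lower in LAC, with a 95% interval of 1.45 to 1.55. Among coding genes, 22.05% had a lower difference than SOD1. A stretch of 75 bases is shared with SCAF4, an RNA-processing gene on the opposite strand that had 96.0 CPM in CG against 66.0 in LAC, so a part of the reads may belong to either gene.

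SOD2, the manganese enzyme of mitochondria (NC_013680.1, 149543414 to 149552019, minus strand), had 14639 counts (185 CPM) in CG and 10678 counts (157 CPM) in LAC. It was 1.18-fold lower in LAC (1.14 to 1.22), a smaller gap than that of SOD1. The count ratio of SOD2 to SOD1, which does not depend on how libraries are scaled, was 0.728 in CG and 0.928 in LAC. This ratio was 1.27-fold higher in LAC (1.21 to 1.34), so the mitochondrial and the cytosolic enzyme did not differ by the same factor.

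CAT, the peroxisomal enzyme that breaks down hydrogen peroxide (NC_013669.1, 173726113 to 173763268, plus strand), had 8484 counts (107 CPM) in CG and 4710 counts (69.4 CPM) in LAC. It was 1.54-fold lower (1.47 to 1.63), and 20.7% of coding genes had a lower difference. SOD1 and CAT, which act in sequence on superoxide and peroxide, kept nearly the same proportion. The count ratio of SOD1 to CAT was 2.37 in CG and 2.44 in LAC, a fold of 1.03 whose interval of 0.971 to 1.10 holds 1.

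GCLC, the catalytic subunit of glutamate-cysteine ligase and the rate-limiting enzyme of glutathione synthesis (NC_013680.1, 43272665 to 43320964, minus strand), had 4295 counts (54.2 CPM) in CG and 3865 counts (56.9 CPM) in LAC. Its ratio was 1.05-fold higher in LAC, with an interval of 0.986 to 1.12 that holds 1. GSS, glutathione synthetase, which adds glycine in the last step (NC_013672.1, 4802491 to 4832162, plus strand), had 1414 counts (17.9 CPM) and 1171 counts (17.2 CPM). It was 1.04-fold lower, and the interval of 0.926 to 1.16 holds 1. Both intervals refer to TMM factors over all loci. Over 5 scalings the difference of GCLC ran from 0.04 to 0.24, above 0 in each, and its highest value came with TMM factors from coding genes alone. The direction of GSS is not fixed, since its difference ran from -0.08 to 0.12 and was below 0 in 3 of the 5.

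GCLM, the modifier subunit of the ligase, could be read only through the row it shares with DNTTIP2, a nucleolar protein gene (NC_013681.1, 70585298 to 70612677, plus strand). That row had 15314 counts (193 CPM) in CG and 12784 counts (188 CPM) in LAC, 1.03-fold lower with an interval of 0.994 to 1.06. How much of it comes from GCLM is not known. A separate locus that the files describe as a ligase regulatory subunit, LOC100349058, had 0 counts in both libraries.

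GSR, glutathione reductase, which returns oxidised glutathione to its reduced form at the cost of NADPH (NC_013670.1, 77025705 to 77071845, plus strand), had 5287 counts (66.8 CPM) in CG and 3259 counts (48.0 CPM) in LAC. It was 1.39-fold lower in LAC (1.31 to 1.48). The recycling enzyme and the rate-limiting synthesis enzyme therefore did not keep their proportion. The count ratio of GCLC to GSR was 0.812 in CG and 1.19 in LAC, a 1.46-fold higher ratio in LAC (1.34 to 1.59). GSR was closer to SOD1 and CAT: the ratio of GSR to SOD1 differed 1.08-fold (1.00 to 1.16), and that of GSR to CAT 1.11-fold (1.02 to 1.20).

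An unannotated locus of 339 bases lies inside GSR on the opposite strand (NC_013670.1, 77039666 to 77040004). It is the one long non-coding transcript on or within 10 kb of the genes with a row, and the one value at these genes that covers all 3 libraries. Its transcript level was 2.18 FPKM (fragments per kilobase, scaled by library) in CG, 1.24 FPKM in LAC and 1.56 FPKM in HAC. CG had the highest value, and HAC lay between CG and LAC. Over 3780 intronic transcripts with at least 1 FPKM in some library, the medians were 1.34, 1.88 and 1.46 FPKM in the same order. That filter lets in transcripts that are high in 1 library only, and their lower quartile was 0.73 FPKM in CG and 1.52 in LAC. The medians therefore do not show in which library a typical transcript peaks, and nothing is drawn from them for this locus. The locus had 64 counts in CG and 33 in LAC, too few for a firm order. Over the whole library the reads on both strands were nearly equal (42.78% sense and 42.85% antisense in CG), which does not tell the strand of reads at this locus. Whether its reads come from unspliced GSR RNA was not tested.

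HMOX1, the inducible heme oxygenase that splits heme into biliverdin, iron and carbon monoxide (NC_013672.1, 86061028 to 86066626, minus strand), had 489 counts (6.18 CPM) in CG and 227 counts (3.34 CPM) in LAC. It was 1.85-fold lower in LAC, and with the fewest counts of the 9 genes its interval was the widest, 1.46 to 2.31. On the log2(CPM + 1) scale, where low genes are understated, the difference was -0.72. Of all coding genes, 17.3% had a lower difference.

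NFE2L2, which encodes NRF2 (NC_013675.1, 116894801 to 116998439, minus strand), had 6543 counts (82.6 CPM) in CG and 8237 counts (121 CPM) in LAC. It was 1.47-fold higher in LAC (1.40 to 1.54), and 93.4% of coding genes had a lower difference. The assembled locus spans 103639 bases and holds 6 transcripts, 3 of them RefSeq messenger RNAs, and the gene table does not say which of them gave the counts. KEAP1, the adaptor that marks NRF2 for degradation (NW_003159540.1, 395934 to 405342, plus strand), had 2012 counts (25.4 CPM) and 1647 counts (24.3 CPM). It was 1.05-fold lower, with an interval of 0.954 to 1.15 that holds 1. Its difference ran from -0.10 to 0.10 over the scalings and was below 0 in 3 of 5, so it has no fixed direction.

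The transcripts of the regulator and of its inhibitor therefore stood in a different proportion. The count ratio of NFE2L2 to KEAP1 was 3.25 in CG and 5.00 in LAC, 1.54-fold higher in LAC (1.38 to 1.71). With the locus lengths described below, and resting on them, this is a ratio of 1.37 per length in CG and 2.10 in LAC. These values are of messenger RNA and say nothing of NRF2 protein, which is set largely by its degradation.

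**Figure D2:**
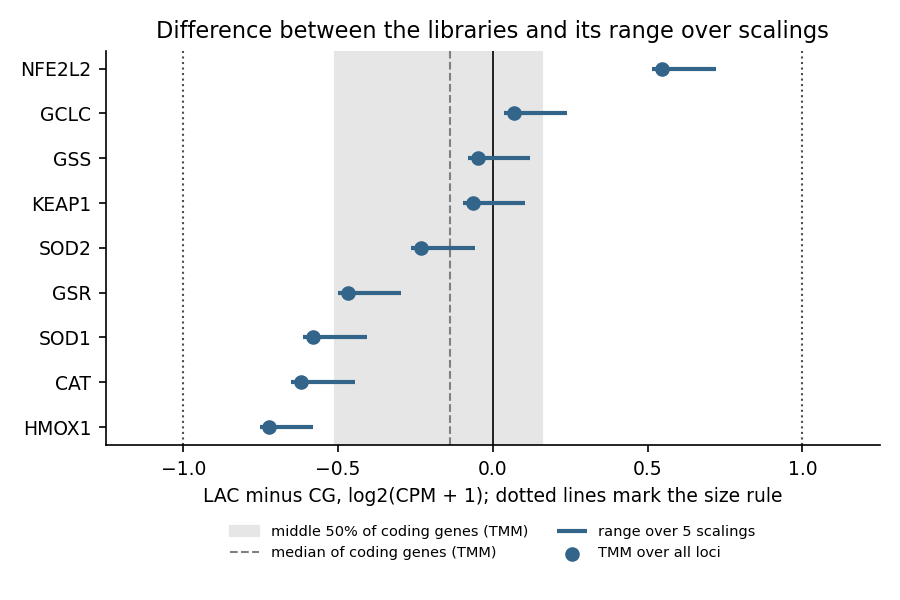
Difference between LAC and CG for each of the 9 genes on the log2(CPM + 1) scale. Points are the values with TMM factors, lines the range over 5 ways of scaling the libraries, the grey band runs from the lower to the upper quartile of coding genes (-0.51 to 0.16), and the dotted lines mark the size rule of 1. The points of SOD1, CAT and HMOX1 lie left of the band and that of NFE2L2 right of it, while the lines of GSS and KEAP1 cross 0.

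Scaling moved all 9 genes together. SOD1 ranged from -0.61 to -0.41, CAT from -0.65 to -0.45, GSR from -0.50 to -0.30, HMOX1 from -0.75 to -0.58 and SOD2 from -0.27 to -0.06. NFE2L2 ranged from 0.52 to 0.72 and GCLC from 0.04 to 0.24. With TMM factors over all loci, 5 of the 9 lay below the median of coding genes, 3 of them below the lower quartile, and 1, NFE2L2, lay above the upper one.

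Ratios between genes of the same library do not depend on that scaling, and 36 pairs can be formed from the 9 genes. On counts divided by 2, the fold by which the ratio differed between the libraries had an interval above 1 for 30 pairs. For 6 pairs the interval held 1. The 6 pairs are SOD1 with CAT, SOD1 with HMOX1, CAT with HMOX1, GCLC with GSS, GCLC with KEAP1, and GSS with KEAP1. Whether an interval holds 1 depends on depth: SOD1 with HMOX1 differed 1.23-fold (0.975 to 1.55), while the deeper pair of GSR and SOD1 had a smaller fold of 1.08 and an interval above 1. All 8 pairs with NFE2L2 had an interval above 1, but these pairs share the same NFE2L2 values and are not separate results. The ratio differed by more than 2-fold in 4 pairs, each with NFE2L2: with HMOX1 by 2.71 (2.14 to 3.41), with CAT by 2.27 (2.12 to 2.43), with SOD1 by 2.20 (2.08 to 2.33) and with GSR by 2.04 (1.89 to 2.21). Each pair was turned so that its fold was at least 1, and the intervals were not adjusted for the number of pairs. The share among pairs of other coding genes was not computed, so these counts of pairs are not read as particular to these genes. Intervals on read pairs, which were wider for single genes, are not given for these ratios. An interval that starts close to 1, as for GSR and SOD1, may therefore hold 1 on read pairs.

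Levels between genes were compared per length. The gene FPKM as deposited does not allow this, since for loci named by the assembly each value had been divided by the length of another locus. At 6539 such loci the long non-coding table lists the length of a single transcript. Taking the length from the shifted row gave the listed length to within 3% in 100% of these cases. Taking it from the own row of the locus did so at 2.21% of 4891 loci. The shift equals the 3375 loci that bear a gene number in place of an assembly name. The length of 7 of the 9 genes could be recovered in this way, and not those of SOD2 and GCLC.

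With its own length of 831 bases, SOD1 was at 283 FPKM in CG and 181 FPKM in LAC, where 18.6 and 11.9 FPKM are deposited. CAT was at 42.6 and 26.4 FPKM, GSR at 27.9 and 19.2 FPKM. NFE2L2, with the longest length of 8010 bases, was at 9.56 and 13.4 FPKM, where 282 and 397 FPKM are deposited. GSS was at 8.13 and 7.51 FPKM, KEAP1 at 6.99 and 6.39 FPKM and HMOX1 at 3.59 and 1.86 FPKM. The order from SOD1 down to HMOX1 was the same in both libraries. The length check used loci with a single transcript, whereas NFE2L2 holds 6, KEAP1 5 and GSS 3. Which of their transcripts gave the counts is not known. Their levels and places here rest on the recovered length of the locus.

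**Figure D3:**
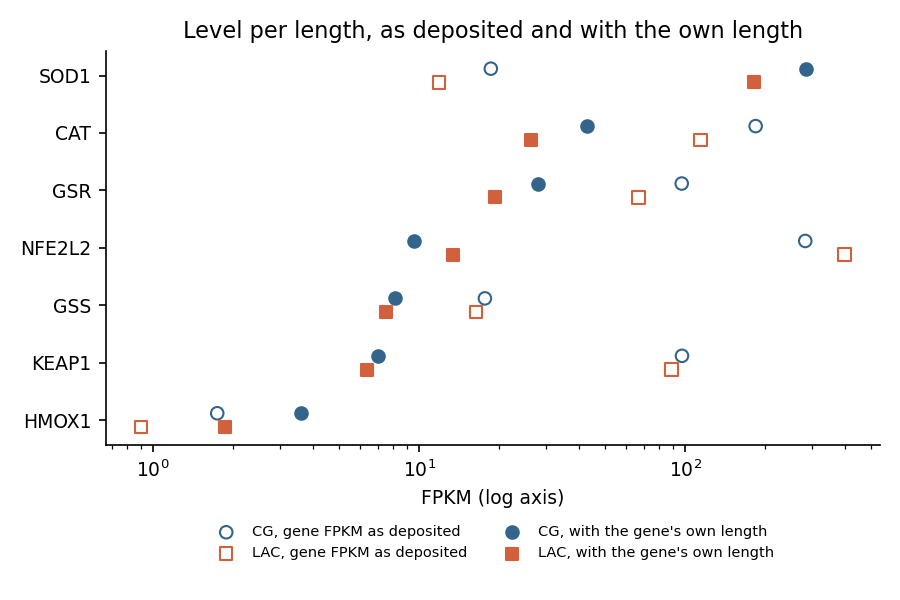
Level per length of the 7 genes whose length could be recovered, in FPKM on a log axis, for CG (circles) and LAC (squares). Filled symbols use the gene's own length and open symbols are the gene FPKM as deposited. With own lengths SOD1 is the highest gene (283 and 181 FPKM), while in the deposited values NFE2L2 is (282 and 397 FPKM).

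Neighbours in this order differed by more than counting error on counts divided by 2 and the range of the recovered length. That range does not cover which transcripts of a locus were present, and intervals on read pairs are not given for this order. The closest were GSS and KEAP1, with a ratio per length of 1.16 in CG (1.03 to 1.31) and 1.18 in LAC (1.03 to 1.34). NFE2L2 stood 1.18 times above GSS in CG (1.07 to 1.30) and 1.79 times in LAC (1.61 to 1.99). SOD1 exceeded CAT 6.65 times in CG and 6.85 times in LAC. Of the 12649 coding genes with a length, 99.4% in CG and 99.04% in LAC were below SOD1, and 93.5% and 91.4% were below CAT. GSR stood above 89.4% and 87.6%, GSS above 63.2% and 67.2%, and KEAP1 above 59.3% and 63.1%. NFE2L2 was above 67.7% of coding genes in CG and 81.3% in LAC, and HMOX1 above 45.5% and 39.3%. Without replicates it is not known how far such places vary between libraries of the same group.

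The wider redox system was described by 8 gene lists, of which 95 genes were found in the table and 87 had enough counts. Listed genes not found by symbol are left out, so a list need not cover its whole family. Of these, 1 was higher in LAC past the size rule and 13 were lower, beside the 1.89% and 11.0% of all coding genes. Their median difference was -0.14, as over all coding genes.

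Among the partners of superoxide and peroxide removal, 13 of 16 listed genes were found. None of the 9 with enough counts passed the size rule, and the median was -0.00. PRDX1, a peroxiredoxin of the cytosol, had 387 CPM in CG against 264 in LAC, 1.47-fold lower (1.43 to 1.505). GPX3, the secreted glutathione peroxidase, had 71.0 and 39.4 CPM, 1.80-fold lower (1.69 to 1.93). GPX1, the glutathione peroxidase of the cytosol, was at 140 CPM in both. SOD3, the extracellular dismutase, had 0 counts in both libraries.

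In the thioredoxin and glutaredoxin list 1 of 10 genes was lower and none higher, with a median of 0.00. That gene was GLRX, a glutaredoxin that uses glutathione to reduce mixed disulfides, with 77.4 CPM in CG against 20.6 in LAC, 3.76-fold lower (3.46 to 4.09). TXN, thioredoxin, had 101 and 107 CPM, TXNIP, its inhibitor, had 144 and 162 CPM, and GLRX5, a mitochondrial glutaredoxin, had 19.3 and 13.2 CPM.

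Around KEAP1 and NRF2, 1 of 11 genes was higher and 1 was lower, and the median was 0.07. NFE2L3, a relative of NFE2L2, had 22.9 CPM in CG against 2.06 in LAC, 11.1-fold lower (8.70 to 14.4). BACH2, a repressor that binds the same kind of site as NRF2, had 1.59 and 6.33 CPM, 3.98-fold higher (2.99 to 5.36). NFE2L1, another relative, was near equal at 633 and 662 CPM, and CUL3, the ubiquitin ligase scaffold that KEAP1 binds, had 150 and 131 CPM. The 3 NFE2L genes thus differed from each other: NFE2L2 was 1.47-fold higher, NFE2L1 1.05-fold higher and NFE2L3 11.1-fold lower.

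Among NRF2 targets outside the 10 genes, 2 of 15 were lower and none higher, with a median of -0.26. ABCC1, an exporter of glutathione conjugates, had 108 CPM in CG against 35.8 in LAC, 3.02-fold lower (2.84 to 3.23). EPHX1, microsomal epoxide hydrolase, had 28.2 and 11.1 CPM, 2.53-fold lower (2.25 to 2.85). The ferritin chains FTH1, at 616 and 583 CPM, and FTL, at 219 and 218 CPM, were nearly equal. Of the 15 targets, 10 had a difference below 0, which is near the 61.9% of all coding genes.

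Of the glutathione transferases, which join glutathione to electrophiles, only 9 of 21 listed genes were found. None of the 8 with enough counts passed the size rule, and the median was -0.22. GSTM3 had 118 and 114 CPM, GSTP1 had 64.8 and 60.8 CPM, and MGST1, a membrane-bound member, had 37.0 and 24.5 CPM. HPGDS, a prostaglandin D synthase of this family, had 1.41 and 0.32 CPM.

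Glutathione supply and turnover had the lowest median of the 8 lists, -0.49, with 4 of 15 genes lower and none higher. CHAC1, which degrades glutathione inside the cell, had 10.7 CPM in CG against 2.00 in LAC, 5.33-fold lower (4.11 to 6.98). DPEP1, a dipeptidase that acts on glutathione breakdown products, had 115 counts in CG and 5 in LAC. CTH, which makes cysteine, and GGT7 were the other two lower genes. GLO1, a glutathione-dependent enzyme that removes methylglyoxal, had 133 and 106 CPM. ESD, which acts on a glutathione adduct formed from formaldehyde, had 43.6 and 45.9 CPM.

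In the heme and iron list, 2 of 12 genes were lower and none was higher, and the median was -0.17. HMOX2, the constitutive heme oxygenase, had 46.9 CPM in CG against 18.6 in LAC, 2.52-fold lower (2.30 to 2.76), so both heme oxygenases were lower. FLVCR1, a heme exporter, had 88.5 and 40.9 CPM, 2.16-fold lower (2.03 to 2.30). Among oxidant producers 3 of 12 genes were lower and none was higher, with a median of -0.08. XDH, xanthine dehydrogenase, had 13.5 and 3.24 CPM, 4.18-fold lower (3.40 to 5.18), and DUOX2, which releases hydrogen peroxide, had 6.52 and 0.74 CPM, 8.85-fold lower (5.86 to 13.9). NOX5 was the third lower gene. NOX4, an oxidase that makes hydrogen peroxide, had 124 and 114 CPM, and MAOA, a mitochondrial amine oxidase, had 14.0 and 11.3 CPM.

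**Figure D4:**
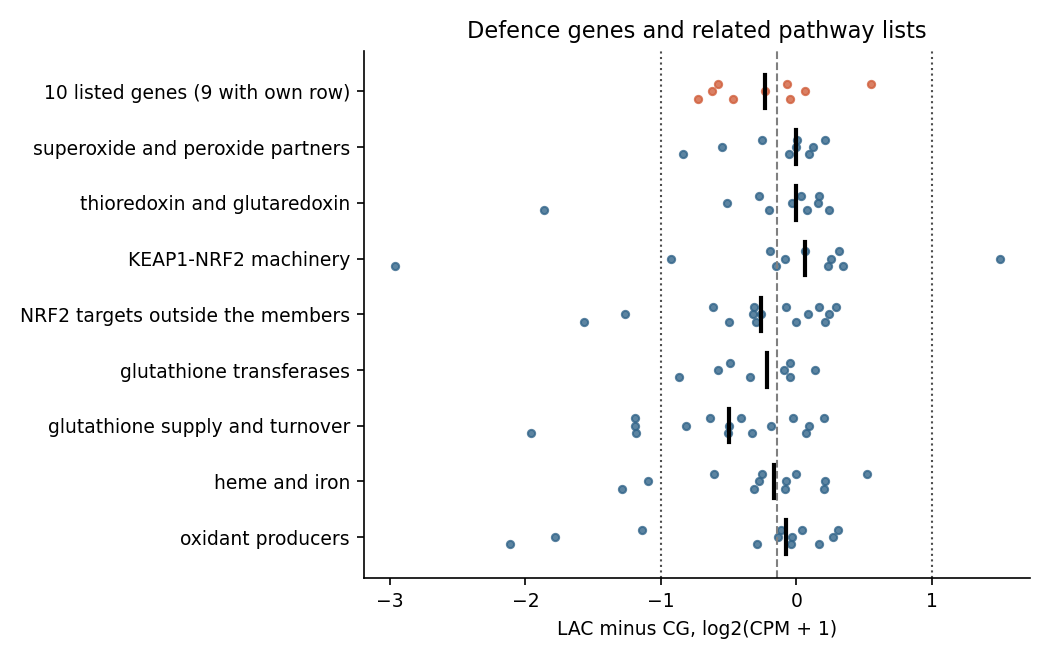
Difference between LAC and CG on the log2(CPM + 1) scale for the 9 defence genes (top row) and for the genes with enough counts in 8 related lists. Each point is a gene, black bars are medians, the dashed line is the median of coding genes (-0.14), and the dotted lines mark the size rule of 1. All 9 defence genes lie between the dotted lines, whereas NFE2L3 lies farthest left (-2.96) and BACH2 farthest right.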

How the data were processed

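RNA depleted of ribosomal RNA was sequenced in 3 libraries, 1 per group. Reads were handled with fastp and HISAT2 on build OryCun2.0, per the submitters' processing notes, which give no versions, and the assembly and abundance steps are not given in the sources used here. The deposited gene tables hold an estimated count and an FPKM per locus, per the file headers, and the deposited long non-coding tables hold a coverage signal and the authors' FPKM per transcript. The estimated counts equalled coverage times length divided by 75 at 100% of 8651 loci in CG and 8638 in LAC, while reads have 150 bases, so 2 counts stand for about 1 read and each interval rests on counts divided by 2. The gene columns in the HAC file, 2 of 12 with per-sample values, repeat those of LAC and stayed unused.

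Counts were scaled to CPM by trimmed mean of M values (TMM) factors over all loci, 1.01 for CG and 0.991 for LAC, with 30% of ratios and 5% of levels trimmed. The design had foreseen a packaged count tool. The deposited tables stack text under the count columns, so the factors were computed from their formula and run on simulated data. The simulation raised and lowered equal numbers of genes, unlike these data, so it cannot judge the choice of factors. Differences are on log2(CPM + 1), where low genes are understated. The size rule asked for a difference of at least 1 and at least 10 counts in the higher library. Folds divide CPM values with no pseudocount added and carry exact binomial 95% intervals, and ratios between genes have exact conditional intervals. A row counted as coding where it held a RefSeq messenger RNA. The RefSeq table (assembly mOryCun1.1, used for names only) matched 832 of 13817 LOC names to symbols by gene number. Python 3.11.15, pandas 2.3.3, numpy 2.4.6, SciPy 1.17.1 and matplotlib 3.10.9 were used.

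The text names all 10 genes and, of each list, up to 2 genes with the highest mean CPM and up to 2 with the largest difference among those with at least 1 CPM, plus the long non-coding transcripts on or within 10 kb. CTH, GGT7, NOX5, SOD3 and LOC100349058 were named after their values were seen. The 10 genes and all lists were chosen with earlier results of these data known. The alternatives were other scalings, pseudocounts, count minimums, a smaller size rule, the deposited gene FPKM and intervals on read pairs.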

Additional observations from a re-analysis of the deposited data

How the results depend on the processing

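With 1 library per group no library could be left out, and differences have no replicate spread. The median of the 9 genes moved from -0.23 to -0.0575 with TMM factors from coding genes alone, to -0.0641 with upper-quartile factors and to -0.30 with the deposited gene FPKM. The median of all coding genes moved to -0.00 and -0.01 with the first and the second of these, so both shifted alike, and the share of calls that were higher went from 14.6% to 22.8% and 22.6%. No gene of the 9 passed the size rule of 1 under any scaling, pseudocount or filter, or by deposited FPKM. With the main scaling and pseudocount, 3 were lower at 0.58. Coding genes past the rule numbered 283 higher and 1653 lower; with a pseudocount of 0.1 they were 943 and 2740 (25.6% higher), with 5 they were 112 and 909, at a size of 0.58 they were 902 and 3315, and 179 were higher by deposited FPKM. Of the listed pathway genes, 1 was higher and 13 lower; 2 were higher with a pseudocount of 0.1 and 0 with 5 or by FPKM, and 20 were lower at 0.58. With no count filter, 7 of the 9 genes lay below the coding median of 0. The transcript inside GSR was highest in CG and lowest in LAC also with median-of-ratios factors (2.46, 1.02 and 1.68). Levels per kilobase of RefSeq coding sequence were not run, since no sequence lengths were used here. On read pairs the interval of every gene was wider, and for none did it change whether the interval held 1. Depth limits HMOX1 most, whose ratio of LAC to CG had an interval of 0.391 to 0.752 on read pairs, against 0.432 to 0.683.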

Other observations

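The pathway annotation in the gene table gives wider groups that hold some of the same genes, chosen after the data were seen. The annotation was used as deposited, without a check of each gene. A gene such as TM4SF1 or RASGEF1B is counted below only because the annotation places it there. Glutathione metabolism had 53 genes with enough counts, including GCLC, GSR and GSS, of which 1 was higher past the size rule (TM4SF1) and 4 were lower (LOC100344262, CHAC1, RRM2 and GGT7), with a median of -0.09. Peroxisome had 89 genes, including SOD1, SOD2 and CAT, with 0 higher, 5 lower and a median of -0.11. Ferroptosis, an iron-dependent cell death that glutathione counters, had 44 genes, including GCLC, GSS and HMOX1. In it SAT1 and SLC39A14 were higher, 4 genes were lower, and the median was -0.06. No median stood below that of all coding genes, -0.14. A row with no coding transcript that the files describe as a copper and zinc superoxide dismutase, LOC108176430, had 67 counts in CG and 40 in LAC, so few reads of a SOD1 copy were assigned apart from SOD1.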
